A study of Mus musculus with 10 samples.

Results

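The genes described here build and serve the photoreceptor cilium. They are 39 genes chosen by name: 10 that encode or assist the BBSome, 14 that encode intraflagellar transport (IFT) proteins, 4 motor genes, and 11 genes of the connecting cilium, the axoneme and the delivery of proteins to the outer segment. The table held 57010 genes, of which 15539 had enough counts to be tested, and all 39 members were among them. Bulk RNA sequencing was made on retinas of mice aged 6 to 8 weeks, taken 14 days after vector had been injected into the vitreous. In the AAV2-GFP group 5 mice had received green fluorescent protein (GFP) in the capsid of adeno-associated virus (AAV) serotype 2, and in the AAV206-GFP group 5 mice had received GFP in the capsid named AAV206. Both groups therefore carried an injected vector and GFP, and no uninjected retina was analysed here. The series title presents a vector aimed at the retinal pigment epithelium, and the libraries were made from retina. The labels give no strain, sex, dose or promoter, and p-values measure the spread between the 5 libraries of each group.

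A rod or cone holds its visual pigment in an outer segment, which is a modified cilium joined to the cell body by a thin connecting cilium. Cargo moves along the microtubules of a cilium on IFT trains: IFT-B with kinesin motors carries it outward, and IFT-A with a dynein brings it back. The BBSome is a coat-like complex that rides on these trains and carries membrane proteins, and the transition zone at the cilium base acts as a gate. Mutations in many of these genes cause retinal degeneration, alone or within Bardet-Biedl, Joubert or Senior-Loken syndrome.

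With AAV206-GFP, 5 of the 39 genes passed an adjusted p-value of 0.05, and all 5 were higher: the BBSome subunits Ttc8, Bbs7 and Bbs4 and the connecting cilium genes Rpgr and Ahi1. Their log2 fold changes, always AAV206-GFP over AAV2-GFP, ran from 0.22 to 0.52. The 5 genes are 12.8% of the members, beside 11.2% of all tested genes, so the share of members called was near the background. For higher calls alone the background was 5.95%, and for lower calls 5.30%. The 2 groups did not overlap for 5 members, against 9.78% of all tested genes: 4 members were higher (background 5.41%) and 1 lower (background 4.36%). At an unadjusted p under 0.05 there were 14 members, 8 higher and 6 lower, against 28.0% of all tested genes. The median log2 fold change of the members was 0.05, and that of all tested genes was -0.0095.

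Library totals lay between 10989843 and 12752604 counts, so that 3 counts corresponded to 0.232 to 0.274 CPM, the count scaled to a common library size. The members had between 55 and 25635 counts in a library, all well above that floor, which covers counting error only. The 8 rod markers were abundant in every library, at a summed 53222 to 56737 CPM in AAV2-GFP and 56906 to 62777 CPM in AAV206-GFP. AAV2-GFP replicate 1 stood apart in its immune genes: its 7 T and NK lymphocyte markers summed to 23.6 CPM, and no other library passed 1.13 CPM. In bulk retina, fewer cells of a type and less RNA per cell cannot be told apart.

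The letters of an X-box, the site type bound by RFX factors, which are known for switching on cilium genes, were searched in the stretch from 250 bases before to 50 bases after the transcription start. RefSeq windows (build GRCm38.p6) were found for 34 of the 39 members. Ift80, Ift81, Ift122, Rp1 and Rp1l1 had no entry. The X-box type pattern, 14 letters long, was read on both strands and was present in 7 of the 34 members, or 20.6%, beside 2.49% of all 27025 genes with a window and 14.5% of the other cilium genes listed further on. The 8 matches are shown because 3 of the 7 genes, Bbs4, Bbs7 and Ahi1, were among the 5 that passed the test. Of all 39 members 12.8% passed, and of all tested genes 11.2%. The calls of Bbs4 and Bbs7 did not stand in every fit, and a link between the pattern and the calls was not tested. Capitals mark the 14 letters of the match, printed on the strand of the gene; for Bbs1, the first Ift22 match and Ift57 the pattern reads only on the opposite strand.
Bbs1 (chr19:4906605-4906634, minus strand): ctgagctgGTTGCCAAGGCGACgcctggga
Bbs4 (chr9:59353464-59353493, minus strand): ctcagctgGTCGCCCGGGAAACggtcggct
Bbs7 (chr3:36613489-36613518, minus strand): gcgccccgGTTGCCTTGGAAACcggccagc
Ift22, first match (chr5:136908079-136908108, plus strand): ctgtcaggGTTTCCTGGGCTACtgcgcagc
Ift22, second match (chr5:136908109-136908138, plus strand): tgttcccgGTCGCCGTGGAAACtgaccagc
Ift57 (chr16:49699199-49699228, plus strand): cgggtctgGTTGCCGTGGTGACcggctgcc
Ahi1 (chr10:20952560-20952589, plus strand): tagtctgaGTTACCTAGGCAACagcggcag
Nphp4 (chr4:152477903-152477932, plus strand): cggtgcccGTCTCCTAGGTAACgcgccagc
Of the 8 matches, 5 lie upstream of the start and 3 after it. The genes that hold one differed in their values: Ift22 had a log2 fold change of -0.29 and Bbs1 of 0.06, and neither passed the test. TAATCC, the letters of a CRX-type site of photoreceptor genes, was present in 2 members, Bbs1 and Rpgrip1, or 5.88%, beside 8.14% of all genes. A match is a description of letters and not a measured binding site. The search allowed no mismatch at the fixed letters and no other spacing, so variant sites would be missed.

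The 250 bases upstream of 2 of the called BBSome genes are shown. Bbs7 holds the X-box letters (capitals) 121 bases before its start. Ttc8 had the largest log2 fold change of the BBSome genes, and its window held no exact match of either pattern.
Bbs7 (chr3:36613390-36613639, minus strand): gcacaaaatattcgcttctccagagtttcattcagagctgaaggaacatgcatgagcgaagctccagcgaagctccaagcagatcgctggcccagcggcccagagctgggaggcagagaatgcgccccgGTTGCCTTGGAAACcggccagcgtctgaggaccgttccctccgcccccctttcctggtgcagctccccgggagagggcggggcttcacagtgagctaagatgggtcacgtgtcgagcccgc
Ttc8 (chr12:98920324-98920573, plus strand): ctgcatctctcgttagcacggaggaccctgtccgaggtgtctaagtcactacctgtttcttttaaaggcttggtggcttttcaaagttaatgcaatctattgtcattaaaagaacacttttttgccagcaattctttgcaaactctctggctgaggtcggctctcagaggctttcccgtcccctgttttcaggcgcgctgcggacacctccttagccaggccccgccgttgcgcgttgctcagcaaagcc

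Among the role groups of the members, the BBSome subunits had the most calls, 3 of 7, beside 11.2% of all tested genes. The calls of Bbs7 and Bbs4 did not stand in every fit, as given below. Bbip1, a BBSome gene outside the members, was not called (log2 fold change -0.05). Ttc8, the subunit also called BBS8 (GENCODE M21 on GRCm38, chr12:98920574-98983238), was measured at 69.3, 73.5, 67.0, 62.9 and 67.0 CPM in AAV2-GFP replicates 1 to 5 and at 77.8, 95.7, 99.7, 108 and 97.3 CPM in AAV206-GFP. All AAV206-GFP retinas lay above all AAV2-GFP retinas, with AAV206-GFP replicate 1 nearest to them. The means were 67.9 ± 3.85 and 95.7 ± 11.1 CPM (SD, n = 5 each), a log2 fold change of 0.49 (SE 0.08, edgeR adjusted p = 0.000993).

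Bbs7 (chr3:36573142-36613477), a beta-propeller subunit that binds Bbs2 and Bbs9, stood at 132, 138, 126, 123 and 130 CPM in AAV2-GFP. In AAV206-GFP it stood at 138, 147, 164, 151 and 165 CPM. The groups did not overlap, but AAV206-GFP replicate 1 at 138.1 CPM was only just above AAV2-GFP replicate 2 at 137.7 CPM. The difference was 0.24 on the log2 scale (SE 0.06, edgeR adjusted p = 0.0247). It missed the threshold without AAV2-GFP replicate 4, AAV206-GFP replicate 3 or AAV206-GFP replicate 5, where the adjusted p reached 0.0708 at most. Bbs7 also missed it with the replicate number as a block and without AAV2-GFP replicates 1 and 4 together (edgeR adjusted p up to 0.123).

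Bbs4 (chr9:59321990-59353508), a subunit built of repeats and known to bind a protein of the centriolar satellites, had 102, 103, 107, 111 and 103 CPM in AAV2-GFP and 105, 128, 126, 117 and 134 CPM in AAV206-GFP. The groups overlapped through AAV206-GFP replicate 1. Its log2 fold change was 0.22 (SE 0.07) and its edgeR adjusted p 0.0490, at the edge of the threshold. The call was lost when any library other than AAV206-GFP replicate 1 was left out, with adjusted p up to 0.111. Bbs4 exons overlap those of Adpgk on the opposite strand over 194 bases, and reads there cannot be told apart without strand.

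Bbs1, the subunit whose common human mutation causes Bardet-Biedl syndrome, had 124.5, 133.8, 105.3, 116.2 and 123.5 CPM in AAV2-GFP and 112.0, 118.1, 116.8, 135.6 and 145.1 CPM in AAV206-GFP. The groups overlapped across most of their range, with a log2 fold change of 0.06 (95% interval -0.12 to 0.23). Bbs2, Bbs5 and Bbs9 had log2 fold changes of -0.02, 0.08 and 0.04. Among the genes that recruit or fold the BBSome, none of 3 passed the test: Arl6, the small GTPase that brings the complex to membranes, had -0.17, and the chaperonin-like Bbs10 and Bbs12 had -0.09 and 0.13.

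**Figure D1:**
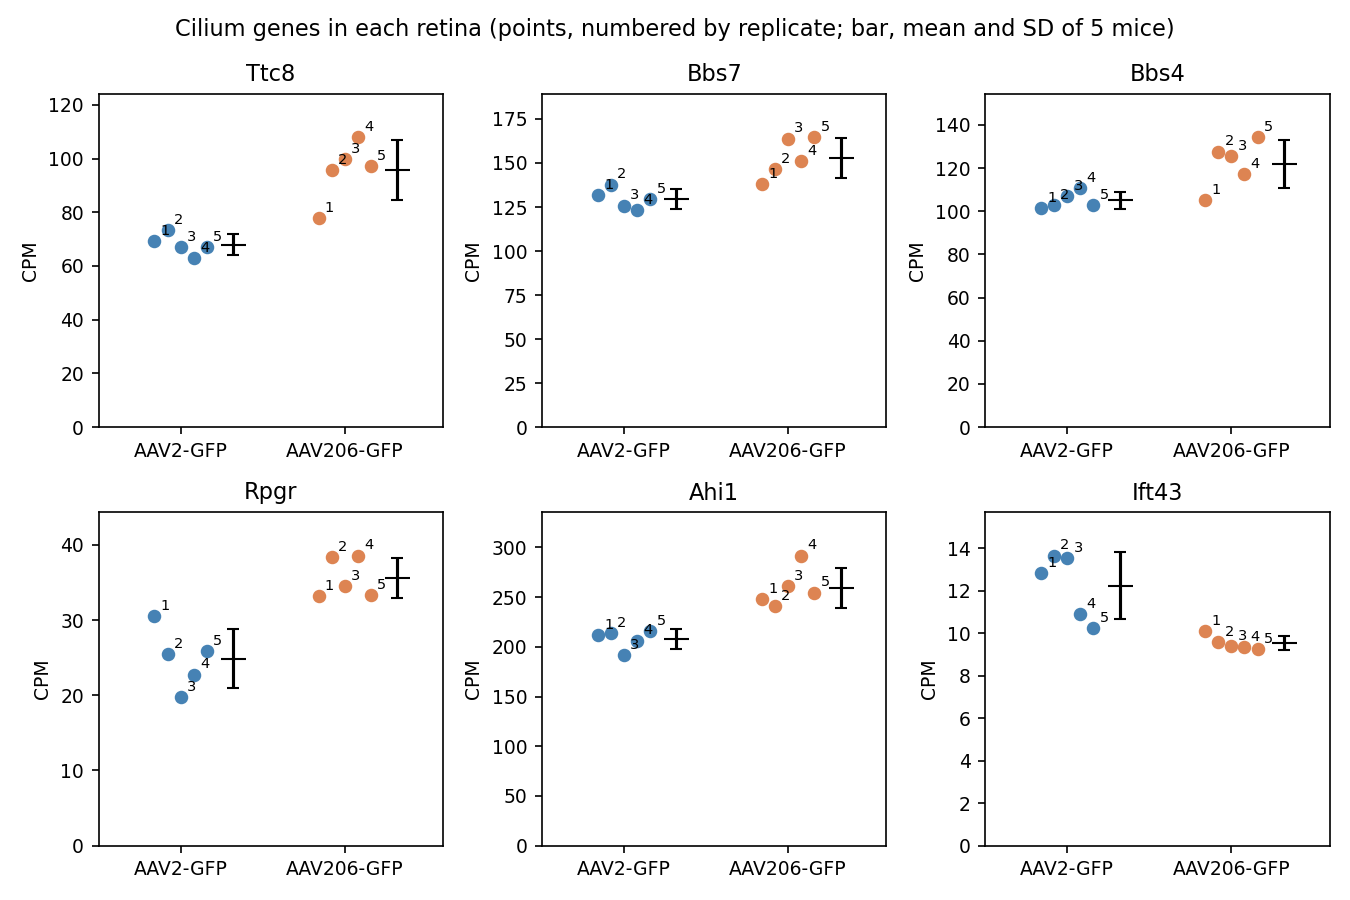
CPM of the 5 genes past the threshold and of Ift43 in each retina; points are libraries numbered by replicate, and the bar gives the mean and SD of 5 mice. Ttc8, Bbs7, Rpgr and Ahi1 show no overlap between groups, Bbs4 overlaps through AAV206-GFP replicate 1, and Ift43 is the 1 gene whose AAV206-GFP values all lie lower.

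The IFT-B genes, 11 in all, gave no call in either direction, and their median log2 fold change was 0.05, with a range from -0.29 to 0.23. Ift88, a core IFT-B protein whose loss in mice disrupts outer segments, had 29.8, 34.2, 30.3, 26.7 and 29.8 CPM in AAV2-GFP and 32.7, 31.1, 34.1, 29.9 and 33.2 CPM in AAV206-GFP. These ranges overlapped, and the log2 fold change was 0.09 (95% interval -0.07 to 0.26). Its exons overlap those of Ift88os on the opposite strand over 67 bases. Ift22 and Ift27, both small GTPase-like subunits, had -0.29 and -0.13, and Ift20, which also serves at the Golgi, had -0.25 and passed as a lower gene only without AAV2-GFP replicate 1. Ift52 and Ift57 stood on the other side at 0.23 and 0.18. The tubulin-binding pair Ift74 and Ift81 differed little in value, at 0.05 each.

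Of the 3 IFT-A genes none passed the test. Ift43 (chr12:86082541-86162459), the smallest of these subunits, had 12.8, 13.7, 13.5, 10.9 and 10.3 CPM in AAV2-GFP and 10.1, 9.58, 9.40, 9.33 and 9.24 CPM in AAV206-GFP. All AAV206-GFP retinas lay below all AAV2-GFP retinas, although AAV2-GFP replicate 5 and AAV206-GFP replicate 1 were close. The log2 fold change of -0.36 (SE 0.12) had an edgeR adjusted p of 0.0623, and it passed only without AAV2-GFP replicate 5 (0.0484). Ift122 and Ift140 had log2 fold changes of -0.16 and 0.01.

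The motors gave no call among 4 genes. Kif3a, a subunit of the kinesin that drives outward transport, had 78.8, 82.6, 67.9, 73.2 and 75.7 CPM in AAV2-GFP and 58.2, 62.8, 76.2, 72.9 and 65.6 CPM in AAV206-GFP. The groups overlapped, and the log2 fold change was -0.17 (95% interval -0.34 to -0.0033, edgeR adjusted p = 0.170). Its partner Kif3b had -0.05, and Kif17, a second ciliary kinesin, had 0.05. Dync2h1, the heavy chain of the dynein that returns cargo, had 0.28 (edgeR adjusted p = 0.113), and it passed the test only without AAV206-GFP replicate 1.

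All 7 connecting cilium and transition zone genes had positive log2 fold changes, with a median of 0.25. Of these 2 passed the test, both higher, beside 11.2% of all tested genes and 5.95% for higher calls alone. The 18 other transition zone genes tested, listed further on, were not uniform: 9 were positive and 9 negative, with a median of -0.0023. In a fit corrected for transcript length, Cep290 and Rpgrip1l turned to -0.036 and -0.035. Rpgr (chrX:10073621-10216920), a regulator of the connecting cilium and the main gene of X-linked retinitis pigmentosa, had 30.5, 25.5, 19.8, 22.7 and 25.9 CPM in AAV2-GFP and 33.1, 38.4, 34.5, 38.6 and 33.3 CPM in AAV206-GFP. No value of the 2 groups overlapped, and the nearest were AAV2-GFP replicate 1 and AAV206-GFP replicate 1. The means of 24.9 ± 3.97 and 35.6 ± 2.70 CPM gave the largest log2 fold change of the 39 genes, 0.52 (SE 0.10, edgeR adjusted p = 0.00457). Rpgr exons overlap those of Srpx on the same strand over 208 bases, so part of its reads could be shared. The Rpgr values carried no decimals in any library.

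Ahi1 (chr10:20952547-21080429), which encodes jouberin and is mutated in Joubert syndrome, had 212, 214, 192, 206 and 216 CPM in AAV2-GFP. With AAV206-GFP it had 248, 241, 261, 292 and 255 CPM. Every AAV206-GFP value was higher than every AAV2-GFP value, and the log2 fold change was 0.32 (SE 0.06, edgeR adjusted p = 0.00455). Ttc8, Rpgr and Ahi1 passed the threshold in each of the 10 fits that left out 1 library and in each of the 10 other settings tried.

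Rpgrip1, which anchors Rpgr in the connecting cilium, had 1254, 1429, 794.5, 916.5 and 1097 CPM in AAV2-GFP and 1477, 1340, 1188, 1280 and 1238 CPM in AAV206-GFP. AAV2-GFP replicates 3 and 4 were the lowest retinas, and the groups overlapped. The log2 fold change of 0.25 had an edgeR adjusted p of 0.196, and it passed only without AAV2-GFP replicate 2 (0.0438). Its values carried decimals in all 10 libraries and its exons overlap Supt16 on the opposite strand over 1057 bases, so the level is uncertain.

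Cep290, a gatekeeper of the transition zone and a frequent cause of Leber congenital amaurosis, had 172, 157, 130, 145 and 155 CPM in AAV2-GFP. In AAV206-GFP it had 127, 167, 158, 157.5 and 182 CPM. The groups covered the same range, and the log2 fold change was 0.06 (95% interval -0.13 to 0.25). It also carried decimals in all 10 libraries and overlaps 4930430F08Rik on the opposite strand over 881 bases. Spata7, which works with Rpgrip1 at the connecting cilium, had 0.31 (edgeR adjusted p = 0.0986) and passed only without AAV206-GFP replicate 3, and Nphp4 had 0.16.

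None of the 4 genes of the axoneme and of ciliary delivery passed the test, and their log2 fold changes ran from -0.09 to 0.07. Rp1, which stabilises the outer segment axoneme, had 2173, 2109, 1672, 1851 and 1987 CPM in AAV2-GFP and 1675, 2018, 2165, 2244 and 2174 CPM in AAV206-GFP. The lowest retina of each group was near the same level, and the log2 fold change was 0.07 (95% interval -0.11 to 0.25). Tulp1, needed to carry proteins from the inner to the outer segment, had 1198, 1315, 1282, 1305 and 1257 CPM in AAV2-GFP and 1324, 1172, 1164, 959.7 and 1353 CPM in AAV206-GFP. AAV206-GFP replicate 4 was the lowest retina and replicate 5 the highest, and the log2 fold change was -0.09 (95% interval -0.25 to 0.07).

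Across the 34 members that missed the threshold, the 95% interval lay within 0.5 of 0 on the log2 scale for 29, and the widest bound was 0.61 from 0. The interval included 0 for 25 of the 34 genes and did not for the other 9, which missed the threshold only after adjustment over all genes.

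**Figure D2:**
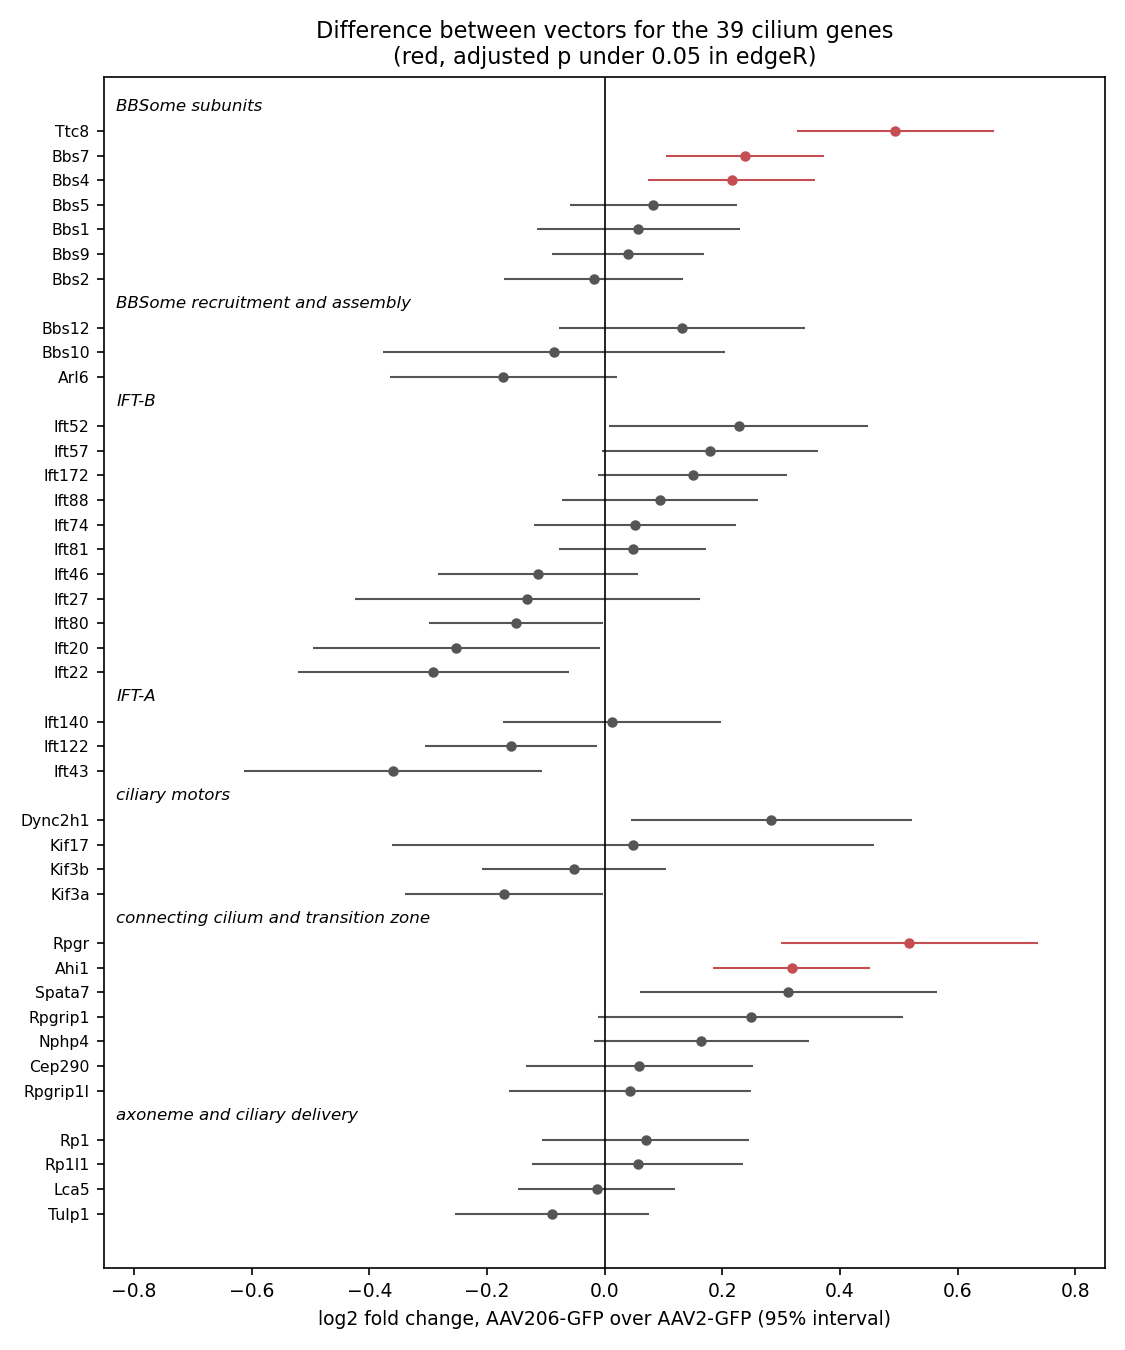
Log2 fold change (AAV206-GFP over AAV2-GFP) of the 39 genes with 95% intervals, in blocks by role; red marks an adjusted p under 0.05. The red genes are 3 BBSome subunits and 2 connecting cilium genes, and the intervals of 25 of the other 34 genes include 0.

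**Figure D3:**
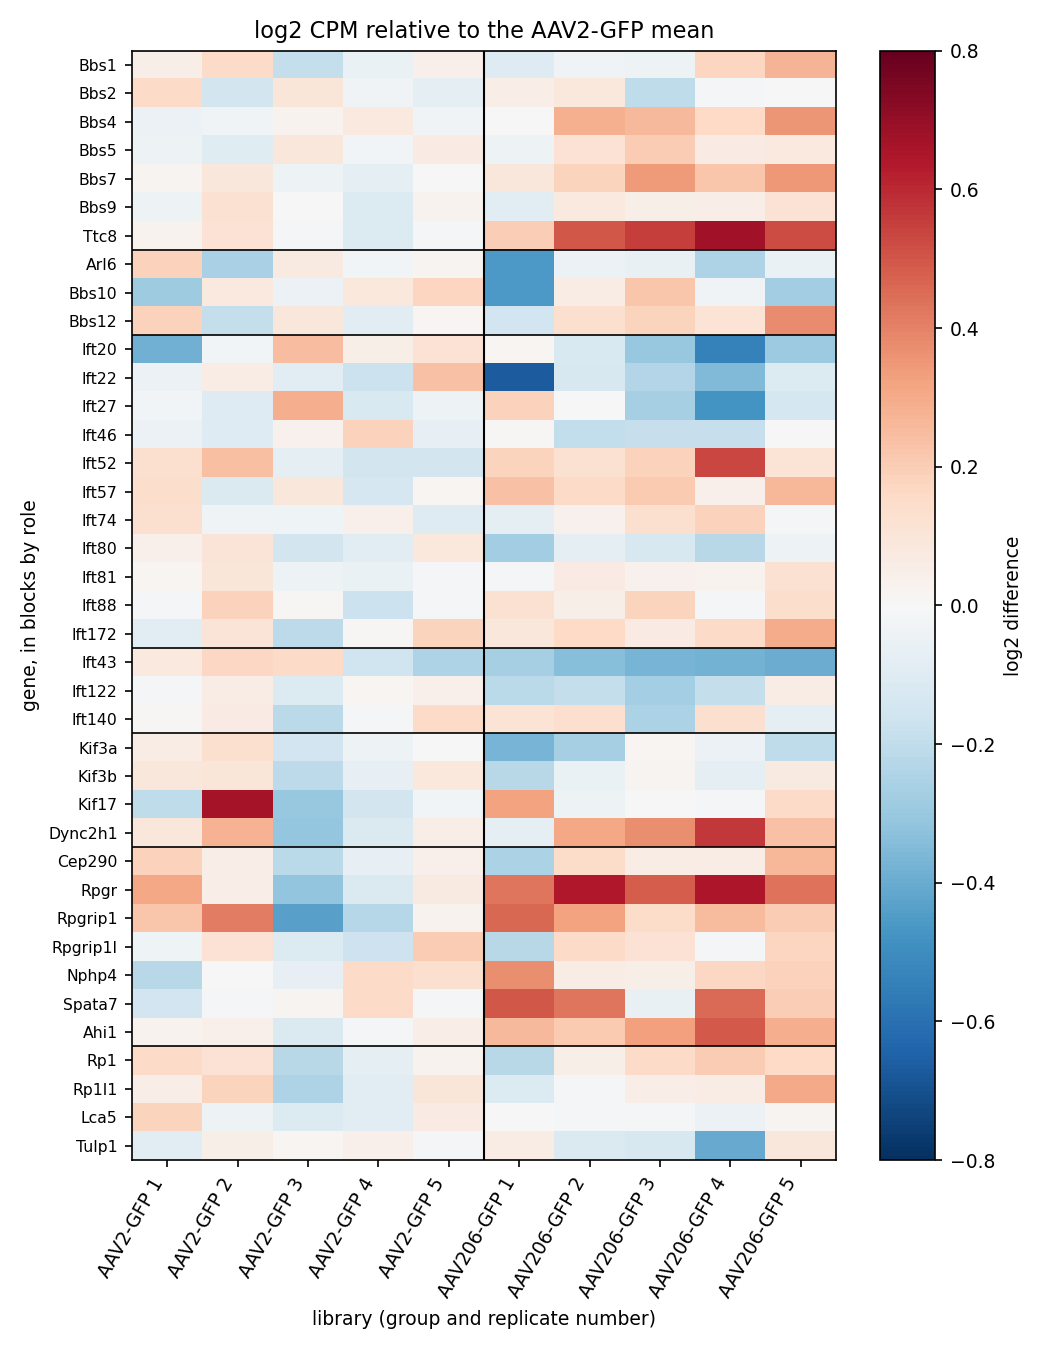
Each cell is the log2 CPM of 1 gene in 1 library relative to the AAV2-GFP mean of that gene, from blue (lower) to red (higher), with genes in blocks by role. Ttc8, Rpgr and Ahi1 are red in all AAV206-GFP retinas, and AAV206-GFP replicate 1 is the lowest of its group for 21 of the 39 genes.

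Single retinas also shaped the values. AAV206-GFP replicate 1 was the lowest of its group for 21 of the 39 genes and AAV206-GFP replicate 5 the highest for 17. In AAV2-GFP, replicate 3 was the lowest for 16 genes and replicate 2 the highest for 17. The coefficient of variation between mice had a median of 9.02% in AAV2-GFP and 9.35% in AAV206-GFP over the members.

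Per kilobase of the longest annotated transcript, the members covered a wide range of levels. Tulp1 was highest, with 583 ± 21.4 CPM per kb in AAV2-GFP and 548 ± 72.0 in AAV206-GFP, followed by Rp1, Rpgrip1 and Rp1l1, which are known photoreceptor genes. In the order of levels, Rp1 at 285 ± 29.4 CPM per kb in AAV2-GFP lay clear of Rpgrip1 at 139 ± 32.3, while Rpgrip1 and Rp1l1 at 120 ± 13.5 were within their spread. In AAV206-GFP the same 2 genes stood apart, at 166 ± 14.1 and 124 ± 13.6 CPM per kb. The 7 BBSome subunits among the members lay between 22.0 and 52.6 CPM per kb over both groups, a ratio of 2.39. For the IFT-A members that ratio was 2.17. Bbip1, a BBSome gene outside the members, lay below the 7, at 17.9 CPM per kb in AAV2-GFP and 17.3 in AAV206-GFP. The IFT-B genes lay between 7.38 and 32.3 CPM per kb, and Kif17 was lowest of all at 1.73.

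**Figure D4:**
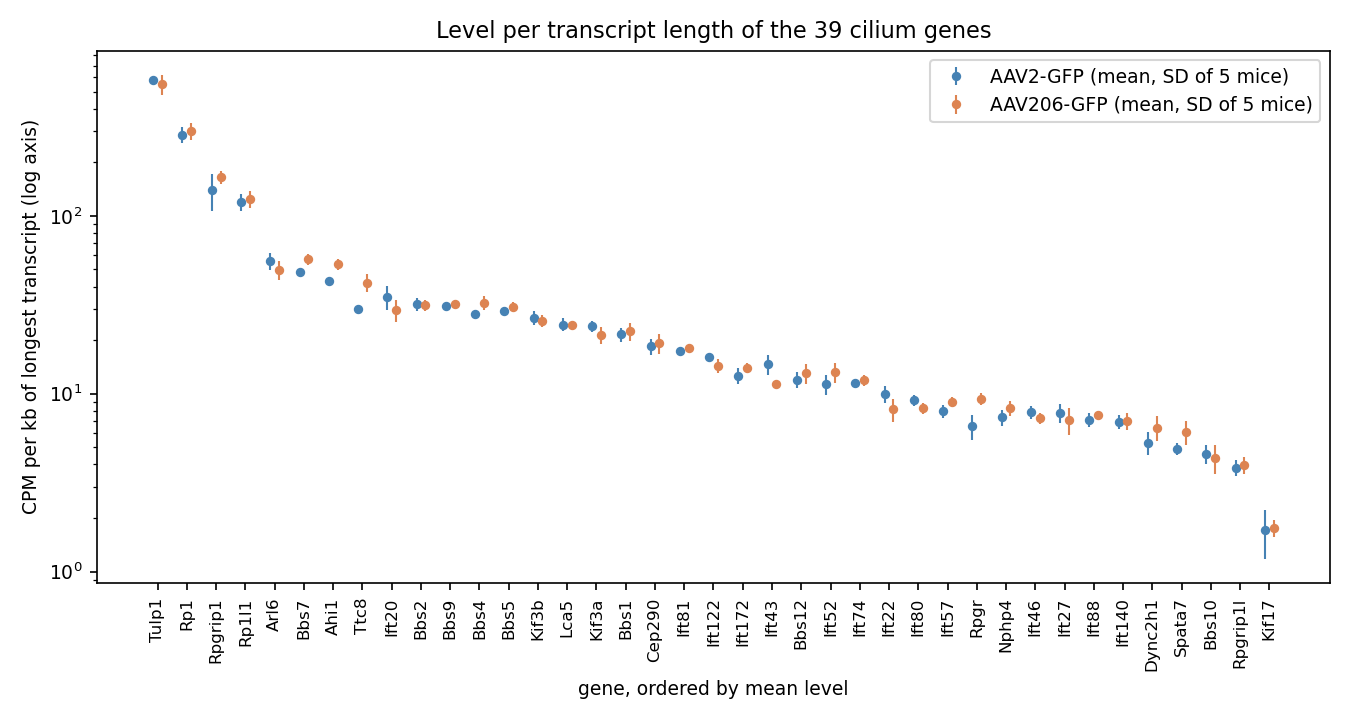
CPM per kb of the longest annotated transcript (log axis) for the 39 genes in order of level, with mean and SD of 5 mice in each group. Tulp1, Rp1, Rpgrip1 and Rp1l1 stand above all others, and for most genes the groups lie on each other.

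Beyond the 39 members, 89 other cilium genes were listed by role, of which 86 were tested. Of these 16 passed the test, 9 higher and 7 lower, or 18.6%, beside 11.2% of all tested genes, and their median log2 fold change was 0.04. The groups did not overlap for 9 of the 86 genes, 6 higher and 3 lower, or 10.5%, which is near the 9.78% of all tested genes. The transition zone genes had 5 calls among 18, the BBSome partners 2 among 5 and the motors 2 among 10. The photoreceptor disease genes had 5 among 23. There was 1 call among the 4 other IFT-A genes, and 1 among the 19 basal body, rootlet and centriole genes. The other IFT-B genes had none.

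The higher genes included Cc2d2a, a transition zone gene of Joubert and Meckel syndromes, with 73.2 ± 6.58 CPM in AAV2-GFP and 111 ± 6.94 in AAV206-GFP, a log2 fold change of 0.60 (SE 0.07, edgeR adjusted p = 6.7e-05). Wdr19, an IFT-A subunit, rose by 0.49 on the log2 scale and Fam161a, a microtubule protein of the connecting cilium, by 0.38. Pcdh15, a protocadherin mutated in Usher syndrome, rose by 0.51.

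The lower genes included Dynll1 and Dynlrb1, light chains shared by the ciliary and the cytoplasmic dynein, with log2 fold changes of -0.60 and -0.28. Tmem107, a transition zone membrane protein, had -0.66, and Mkks, the chaperonin-like partner of Bbs10 and Bbs12, had -0.41 with decimals in all 10 libraries. Rab3ip, the exchange factor for the ciliary GTPase Rab8, and Whrn, a scaffold of the Usher complex, had -0.28 and -0.30. Rab3ip kept its call in 5 of the 10 fits that left out 1 library and lost it without AAV2-GFP replicates 3, 4 or 5 or AAV206-GFP replicates 3 or 4 (adjusted p up to 0.0678). Whrn kept it in 4 and lost it without AAV2-GFP replicates 2, 4 or 5 or AAV206-GFP replicates 2, 3 or 4 (up to 0.0759). Dynlrb1 kept it in 6 and lost it without AAV2-GFP replicates 3 or 4 or AAV206-GFP replicates 2 or 4 (up to 0.0927). Without AAV2-GFP replicates 3, 4 or 5 or AAV206-GFP replicate 2, the 16 calls became 10, 9, 10 and 10.

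Transcript length moved with these differences. The 7 lower genes of the wider list had a median longest transcript of 2242 bases and the 9 higher genes 5633. Over 13578 tested protein-coding genes the log2 fold change and the transcript length had a Spearman rank correlation of 0.31 across genes, which are not independent, and over 5 length classes of like size the median was 0.08 in the longest and -0.14 in the shortest. Across the 39 members it was 0.21. By library, the rank correlation between a library's deviation and length averaged -0.14 ± 0.27 in AAV2-GFP and 0.15 ± 0.15 in AAV206-GFP (exact two-sided permutation test over 252 relabellings, p = 0.0556), with AAV2-GFP replicate 3 lowest at -0.52.

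A fit that corrects each library for this trend, chosen after the trend was seen, kept all 5 member calls and added Ift80 as a lower gene (log2 fold change -0.24, edgeR adjusted p = 0.0210). Ift43 moved to -0.20 (adjusted p = 0.319), and Dynlrb1 to -0.11 (adjusted p = 0.195). Dync2h1, with 14264 bases the longest member, moved from 0.28 to 0.14. Among the shorter genes, Ift20 moved from -0.25 to -0.12, Arl6 from -0.17 to -0.08 and Ift27 from -0.13 to -0.03. In all, 5 members turned from positive to negative, all within 0.1 of 0: Cep290, Rpgrip1l, Ift140, Rp1 and Rp1l1. Ttc8 was 0.55, Rpgr 0.52 and Ahi1 0.29 in that fit.

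**Figure D5:**
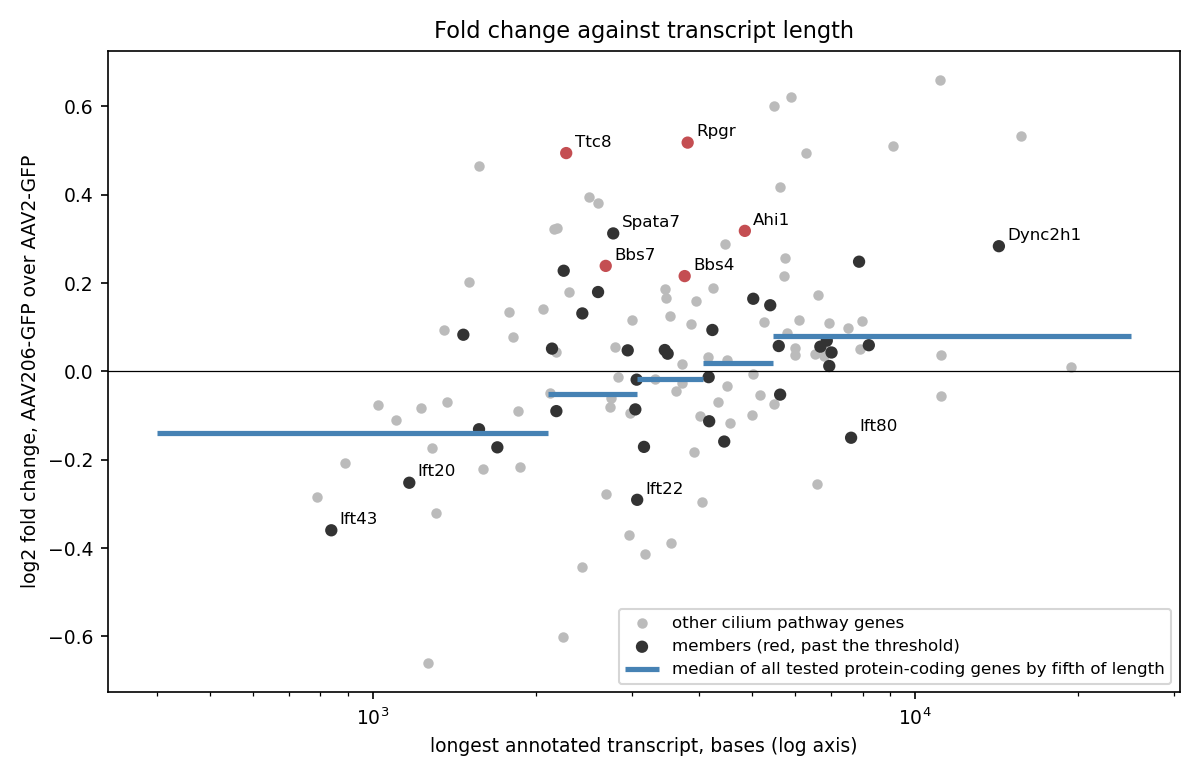
Log2 fold change against the longest annotated transcript (log axis) for the members (black, red past the threshold) and other cilium genes (grey); blue bars give the median of all tested protein-coding genes in each of 5 length classes. The bars climb from -0.14 to 0.08, Ift43 and Ift20 sit at the short end, and the 5 red genes lie above the bars of their own length.

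Marker levels also moved with the groups. Of 8 rod markers 2 passed the test, both higher, among them Nr2e3, the summed ranges given above did not overlap, and none was at 0. Of 7 cone markers 2 were higher (Opn1mw and Gnat2), with sums of 831 to 934 CPM in AAV2-GFP and 939 to 997 in AAV206-GFP. Opn1sw, the most abundant of the 7, had a log2 fold change of 0.06. Cngb3 was the 1 cone marker with a negative value, -0.20 (edgeR adjusted p = 0.159). Microglial markers summed to 23.0 to 173 CPM in AAV2-GFP and 19.2 to 25.2 in AAV206-GFP, with 1 of 6 tested lower. The 173 CPM was AAV2-GFP replicate 1 alone, and no other library of that group passed 39.9 CPM. The lower gene, C1qa, had 48.6 CPM in that replicate and 3.42 to 10.7 CPM in the rest of AAV2-GFP, against 2.15 to 5.17 CPM in AAV206-GFP. Markers of motile cilia summed to 32.1 to 37.7 CPM in AAV2-GFP and 21.9 to 26.6 in AAV206-GFP. Of the 5 tested, 2 were lower, Foxj1 and Ccdc39, and the other 5 of the 10 had too few counts. Dnah11, Dnai1 and Hydin, also tested, had log2 fold changes of -0.03, -0.0025 and -0.06. Erythrocyte markers summed to 67.8 to 85.8 CPM and 101 to 319 CPM, with 4 of 5 higher, while 2 of 3 tested lens markers and 1 of 6 tested pigment epithelium markers were lower. Lim2 of the lens had no count in any library. In the bipolar list 1 of 6 markers was lower, Grm6 (log2 fold change -0.66, edgeR adjusted p = 0.00225). Its counts were fractional in each of the 10 libraries. Grm6 exons share bases with Gm12660 on the opposite strand, so its level is uncertain. Trpm1, Prkca and Vsx1 had log2 fold changes of 0.18, 0.16 and 0.07, and Pcp2 and Cabp5 had -0.30 and -0.03. None of these passed the test. The bipolar sums were 715 to 976 CPM in AAV2-GFP and 596 to 1038 in AAV206-GFP. Of 6 ganglion cell markers 1 was lower, Pou4f1, without overlap (-0.37, edgeR adjusted p = 0.00623), with sums of 650 to 764 and 616 to 705 CPM. None of the 6 Muller glia markers passed, but all 6 had negative values (median -0.19, 3 with an unadjusted p under 0.05), with sums of 2603 to 3459 and 2344 to 2890 CPM. No amacrine or horizontal cell marker passed the test. The part of these cell types in the member differences was not tested. Without AAV2-GFP replicates 1 and 4 together, 3 members passed, Ttc8, Rpgr and Ahi1, at adjusted p of 0.0106, 0.00548 and 0.0322. This pair was chosen with earlier results on immune genes known; by the markers used here replicate 1 stood apart, and the microglial sum of replicate 4, 34.2 CPM, was below the 39.9 CPM of replicate 3.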

How the data were processed

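Gene-level values for 10 retinal libraries were analysed, 5 for each vector, grouped by the labels. Per the labels' protocols, RNA was extracted with Trizol and libraries were made with an NEBNext Ultra kit for paired reads of NovaSeq; strand is not given. The deposited values are expected counts per gene, not scaled between libraries; 5.95% of the values carry decimals. The submitters' processing notes name STAR 2.7.10b, RSEM 1.3.1 and mm10, with no role or order; the annotation release is not given in the sources used here.

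Counts were rounded to whole numbers and fitted in edgeR 4.0.16 (R 4.3.3) with TMM factors, filterByExpr (minimum count 10) and the quasi-likelihood F test without covariates. Adjustment was by Benjamini-Hochberg over all 15539 tested genes, with a threshold of 0.05. SE was taken as the size of the log2 fold change over the root of F. CPM uses TMM-adjusted library sizes. Symbols, coordinates and lengths came from GENCODE M21; 4981 IDs had no symbol there. The procedure was tested on simulated counts. Tctn2 was not analysed here.

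Members and lists were chosen with earlier results of these data known. Values in every library are given for members past the threshold, members without overlap, and Cep290, Rpgr, Rpgrip1, Rp1, Tulp1, Ift88, Bbs1 and Kif3a; from the wider list at most 12 called genes by smallest p are named. Some genes this rule names are not reported here, although the counts include them. The X-box pattern was the RFX type. Ift52, Ift57 and other members are given by log2 fold change. Alternatives were RLE and upper-quartile scaling, no filter, a minimum count of 50, unrounded counts, DESeq2 1.42.0, limma-voom (limma 3.58.1), the replicate number as a block, and each library left out; a length correction and leaving out AAV2-GFP replicates 1 and 4 were added after seeing the data.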

Additional observations from a re-analysis of the deposited data

Results flagged for a closer look

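In 4 of the 78 sets of 5 values (39 genes, 2 groups), 1 retina lay far from the other 4 by Dixon's test; chance alone flags about 1 in 20, or 3.9 here. Ift27 was 14.8 CPM in AAV2-GFP replicate 3, against 11.1 to 11.9 CPM in the others. Ift52 was 36.5 CPM in AAV206-GFP replicate 4, against 27.2 to 28.6 CPM. Ift122 was 74.1 CPM in AAV206-GFP replicate 5, against 58.8 to 62.3 CPM, and without that retina it passed the test as a lower gene. Kif17 was 9.07 CPM in AAV2-GFP replicate 2, against 4.64 to 5.64 CPM. None of these 4 genes passed the test with all libraries.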

How the results depend on the processing

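The 5 member calls stood under RLE and upper-quartile scaling, a minimum count of 50, unrounded counts and DESeq2; without a filter and with limma-voom 4 stood, Bbs4 being lost. With the replicate number as a block, 3 members passed, all 3 higher, Bbs4 and Bbs7 being lost, and 1085 genes passed in all. Same-numbered libraries did not deviate together (correlations from -0.04 to 0.02). The labels do not say whether the numbers pair the mice, and these correlations cannot decide it. Leaving out 1 library at a time gave 3 to 6 members past the threshold (3 to 6 higher, 0 to 1 lower), 9 to 15 genes of the wider list, 991 to 1912 genes in all, and 4 to 6 members without overlap. The lowest counts came without AAV2-GFP replicate 4; without AAV206-GFP replicates 2 and 4 the genes in all were 1074 and 1056, and without AAV206-GFP replicate 5 the higher members were 3. Without AAV2-GFP replicates 1 and 4 together, 3 members (3 higher), 8 genes of the wider list and 985 in all passed; fewer libraries were fitted. The length correction gave 1 lower member and turned Cep290 to -0.036 and Rp1 to -0.0055. The number of mice limits what differences of this size can show.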

Other observations

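Motile cilia, which the photoreceptor cilium is not, had their own markers in these retinas at low levels. Foxj1, the transcription factor that switches on motile cilium genes, had 5.33, 7.73, 6.73, 6.45 and 5.30 CPM in AAV2-GFP and 2.69, 2.19, 3.02, 2.42 and 3.90 CPM in AAV206-GFP. The groups did not overlap, and the log2 fold change was -1.14 (SE 0.20, edgeR adjusted p = 0.00188). Ccdc39, which sets the spacing of motile axoneme arms, had 22.1, 18.3, 19.5, 18.7 and 17.3 CPM in AAV2-GFP and 14.3, 11.6, 11.0, 10.8 and 11.3 CPM in AAV206-GFP, again without overlap (log2 fold change -0.70, edgeR adjusted p = 0.000888). Counts of Ccdc39 were fractional in each of the 10 libraries. Its exons share bases with Ttc14 on the opposite strand, so its level is uncertain. The other 3 tested markers of the list did not pass the test. Foxj1 and Ccdc39 were singled out after their values were seen.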
